A study of Mus musculus with 12 samples.

Results

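The Wnt genes described here are the protein-coding genes for the ligands, receptors, antagonists and some nuclear effectors of the Wnt signal, and they were measured in mouse forelimbs with a deletion of Impdh2 in the limb mesenchyme. They are the genes named Wnt, Frizzled (Fzd), R-spondin (Rspo), Sfrp and Dkk, with the co-receptors Lrp5 and Lrp6, the transcription factors Lef1 and Tcf7, and Axin2. They were chosen by symbol, with no measured value in the rule, but with earlier results of these data known. The rule gave 46 genes of the 51826 counted in the forelimb. RNA sequencing was done on forelimbs of mouse embryos at E12.5 (embryonic day), with 2 libraries from wild-type embryos (WT) and 2 from Impdh2 Prx-cKO embryos. In the Prx-cKO, Impdh2, which encodes an enzyme of guanine nucleotide synthesis, was deleted in limb mesenchymal progenitors. The labels give the deletion as specific to that lineage, and the whole forelimb, with its ectoderm, muscle, endothelium and blood, was sequenced. The strain, the alleles carried by the WT embryos and the number of embryos per library are not given in the sources used here. Nothing in the labels says that the libraries came from separate embryos, so p-values measure only the spread between these libraries. The other 8 of the series' 12 libraries are osteoclast cultures and were not analysed here.

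Wnt proteins are secreted lipid-modified ligands. They bind Frizzled receptors, and with an Lrp co-receptor they stabilise beta-catenin, which then acts on target genes through the Lef and Tcf factors, while other Wnt proteins act on cell polarity and movement without beta-catenin. R-spondins raise the number of receptors at the cell surface, Sfrp proteins bind the ligands, and Dkk1 blocks the Lrp co-receptors. In the limb bud many Wnt ligands come from the surface ectoderm and its apical ridge and act on the mesenchyme beneath, whereas Wnt5a and Wnt11 are known as mesenchymal ligands of the beta-catenin-independent kind.

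The libraries held 28892215 to 69466572 counts. Levels are in CPM, the counts of a gene per 1000000 counts of the library after scaling of the library sizes. Impdh2 was at 260 and 272 CPM in the WT libraries against 170 and 199 CPM in the Prx-cKO libraries. Both Prx-cKO libraries thus lay below both WT libraries, but the difference did not pass the threshold (log2 fold change −0.53, SE 0.16, edgeR adjusted p 0.443). Counts of Xist were 92566 in WT replicate 1 and 139968 in Prx-cKO replicate 2, both with 0 of Ddx3y, and 114 and 10 in the other two libraries, so each genotype had 1 library of female type and 1 of male type.

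The tissue label and the other cell types of the limb were checked with 9 marker lists of 92 genes in all. The limb mesenchyme genes were abundant, with Prrx1 at 304 and 397 CPM in WT against 175 and 216 CPM in Prx-cKO. The 11 genes of this list summed to 2132 and 2429 CPM in WT and to 1442 and 1532 CPM in Prx-cKO. They did not all go the same way, with 9 log2 fold changes below 0 and 2 above, those of Twist1 (0.17) and Msx1 (0.05). The 10 cartilage genes summed to 1006 and 1128 CPM against 448 and 374 CPM. The 14 surface ectoderm genes summed to 836 and 1000.5 CPM in WT and to 983 and 1095 CPM in Prx-cKO, and overlapped between the groups. The 8 genes of the apical ridge were at 170 and 161 CPM against 233 and 220 CPM, those of the endothelium at 214 and 195 against 296 and 283 CPM, and those of myeloid cells at 49.2 and 53.9 against 116 and 111 CPM. The muscle sum set 1 library apart, with 1039 CPM in Prx-cKO replicate 1 against 495 in Prx-cKO replicate 2 and 389 and 377 in WT. The nerve and glia sum was 116 and 114 CPM in WT and 127 and 148 CPM in Prx-cKO, and the erythroid sum 3968 and 2761 against 3703 and 2900 CPM. Of the 92 marker genes only Prph was at 0 in a library (Prx-cKO replicate 1). The plot of marker sums shows these values relative to the WT mean. In such bulk samples fewer cells of a type and less RNA per cell cannot be told apart, and the part of these shifts in the Wnt results was not tested.

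**Figure D1:**
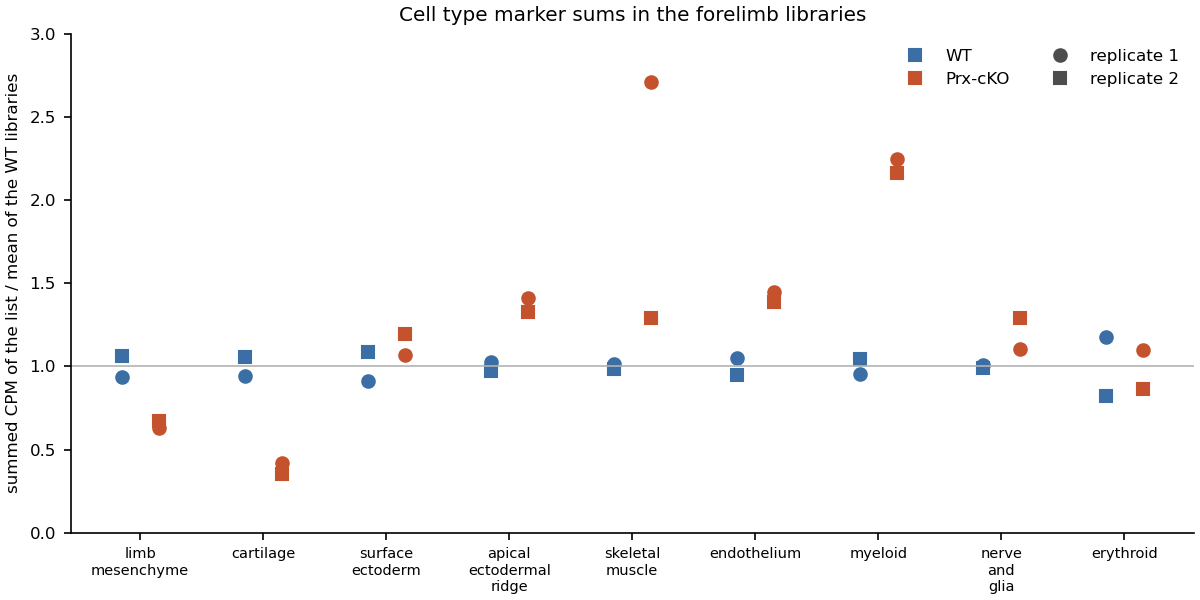
Summed CPM of 9 marker lists in each forelimb library, divided by the mean of the WT libraries (vertical axis, no unit), with circles for replicate 1 and squares for replicate 2 and blue for WT and red for Prx-cKO. The mesenchyme and cartilage sums of both Prx-cKO libraries lie below both WT libraries, at 0.632 and 0.672 and at 0.42 and 0.351 of the WT mean, and the muscle sum of Prx-cKO replicate 1 stands at 2.71 times it.

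The comparison of Prx-cKO with WT forelimbs asked how the Wnt genes differ when Impdh2 is lost from limb mesenchyme. Rspo3, Sfrp2, Wnt11, Wnt5a, Fzd5, Dkk2 and Dkk3 were lower in both Prx-cKO libraries than in both WT libraries, and Wnt6, Dkk1, Tcf7 and the barely detected Wnt8a were higher. Rspo3 and Fzd5 were at 37.8% of the WT mean, Sfrp2 at 47.4%, Wnt11 at 51.8% and Wnt5a at 55.1%, whereas Wnt6 was at 144%, Tcf7 at 148% and Dkk1 at 169%. These 11 are the Wnt genes with an unadjusted p under 0.05 in edgeR's quasi-likelihood test, and their direction held in each of the 10 alternative settings run. None of them passed after Benjamini-Hochberg adjustment over the 19987 genes tested, where no gene of any kind passed (0 calls, 0%, smallest adjusted p 0.118), while 2095 genes (10.5%) had an unadjusted p under 0.05 in edgeR. They are therefore described by their values. The calls depended on the tool and on which library was left out. DESeq2 called Rspo3, Sfrp2, Wnt11 and Fzd5, 4 Wnt genes, among 301 calls in all (1.45%). Without WT replicate 1, edgeR called 4 Wnt genes, Rspo3, Sfrp2, Wnt5a and Fzd5, among 603 calls (2.84%). With 1 WT library left the spread comes from the Prx-cKO pair alone, which was the closer pair, and the lone WT library is assumed to vary like it. Without WT replicate 2 it called 0 Wnt genes among 104 calls (0.507%), and without either Prx-cKO library it called 0 genes. Over all settings run, the adjusted p ranged from 6.66e-05 to 0.9998 for Rspo3 and from 0.0024 to 0.9998 for Sfrp2.

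Of the 46 Wnt genes 43 passed the filter on low counts. At an unadjusted p under 0.05, 7 of the 43 were lower (16.3%), against 4.61% of all genes tested, and 4 were higher (9.3%), against 5.87%. With 1 library left out these were 9 lower and 4 higher (WT replicate 1), 6 and 4 (WT replicate 2), 4 and 1 (Prx-cKO replicate 1) and 4 and 0 (Prx-cKO replicate 2). The higher ones include Wnt8a, which passed the filter through the Prx-cKO libraries alone. Both Prx-cKO libraries lay below both WT libraries for 11 of the 43, against 21.0% of all genes tested, and above them for 13, against 22.2%. The other 19 overlapped. The median log2 fold change over the 43 was 0.01, beside −0.03 over all genes tested, and it became −0.002 with RLE size factors and −0.08 with library size alone, so the set as a whole had no direction that held under every scaling.

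**Figure D2:**
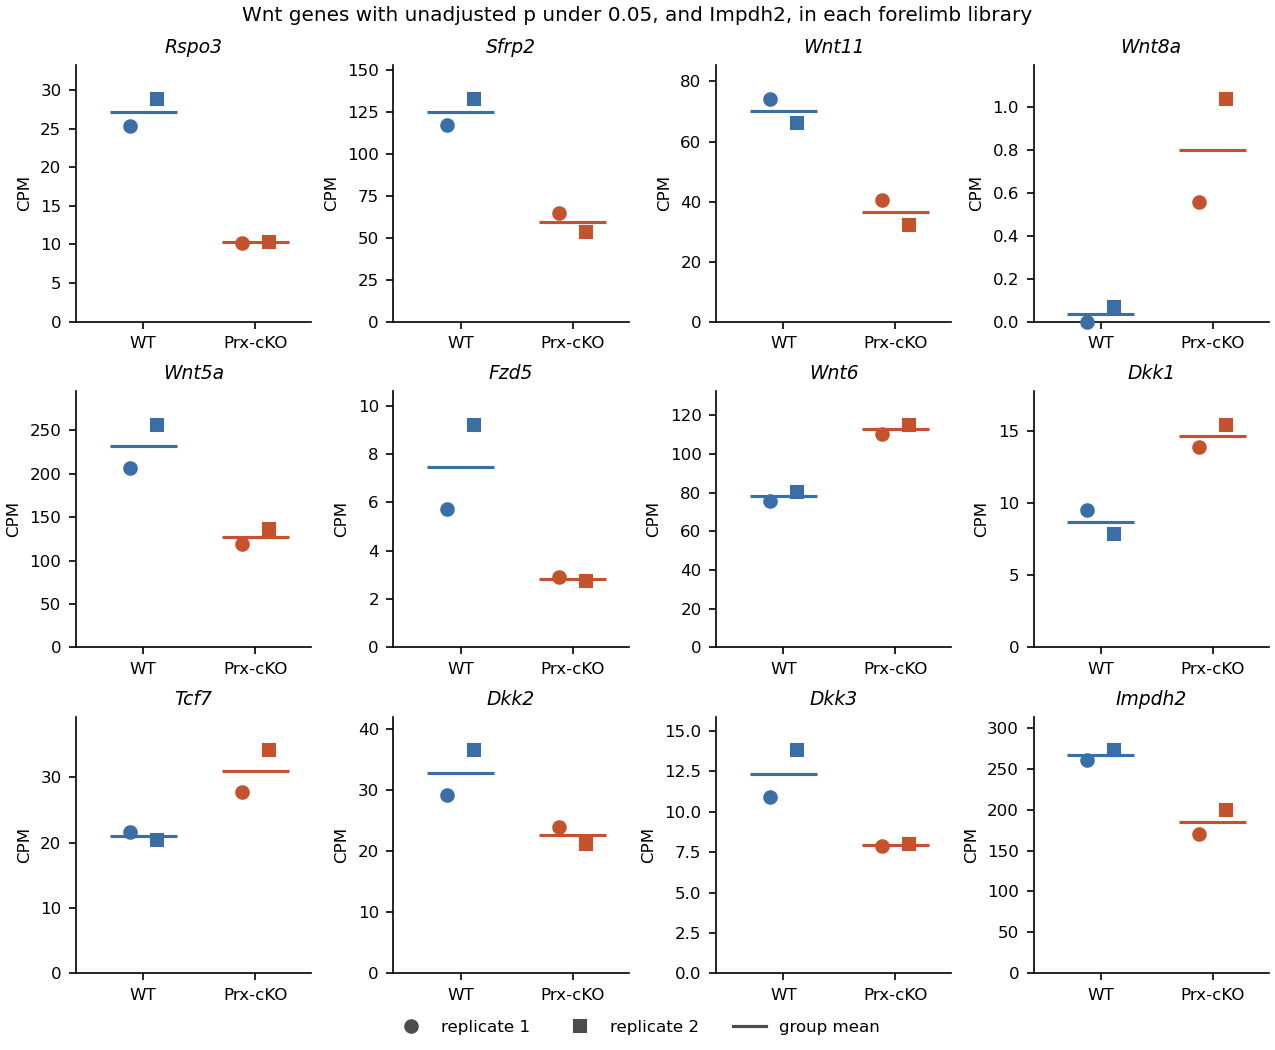
CPM (vertical axis, linear from 0) in each forelimb library for the 11 Wnt genes with an unadjusted p under 0.05 and for Impdh2, with circles for replicate 1, squares for replicate 2 and a bar at each group mean. In every panel the 2 Prx-cKO libraries lie on one side of the 2 WT libraries, from Rspo3 at about 10.2 against 25.4 CPM or more to Wnt6 at 110 CPM or more against 80.2 or less.

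Promoter sequences are shown for those of these genes that head each direction by p and have a RefSeq window. Wnt8a, which has the smallest p of the higher genes, was left out before windows were looked up. The printed sequences let the start regions of genes with opposite differences be set side by side. Each runs from 250 bases before to 50 bases after a RefSeq start site on GRCm38.p6, 5′ to 3′ on the gene's strand. Capitals mark CTTTGA on either strand, the core of the sequence that Lef and Tcf factors bind. Sfrp2 and Wnt11 were lower in Prx-cKO and Wnt6, Dkk1 and Tcf7 were higher. The windows are chr3:83766071-83766370 (plus strand) for Sfrp2, chr7:98834862-98835161 (plus) for Wnt11, chr1:74771642-74771941 (plus) for Wnt6, chr19:30549447-30549746 (minus) for Dkk1 and chr11:52282965-52283264 (minus) for Tcf7.
Sfrp2: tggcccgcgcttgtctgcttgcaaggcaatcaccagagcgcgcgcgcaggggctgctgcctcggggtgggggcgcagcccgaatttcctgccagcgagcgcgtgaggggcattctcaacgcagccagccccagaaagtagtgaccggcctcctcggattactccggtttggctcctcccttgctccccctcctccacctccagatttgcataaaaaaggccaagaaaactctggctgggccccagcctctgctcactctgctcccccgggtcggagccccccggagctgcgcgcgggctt
Wnt11: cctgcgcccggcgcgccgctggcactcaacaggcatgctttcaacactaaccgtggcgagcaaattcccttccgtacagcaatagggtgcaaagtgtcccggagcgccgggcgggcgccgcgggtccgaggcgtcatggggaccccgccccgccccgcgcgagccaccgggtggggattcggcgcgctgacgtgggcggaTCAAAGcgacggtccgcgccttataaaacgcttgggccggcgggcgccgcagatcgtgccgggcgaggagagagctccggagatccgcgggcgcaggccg
Wnt6: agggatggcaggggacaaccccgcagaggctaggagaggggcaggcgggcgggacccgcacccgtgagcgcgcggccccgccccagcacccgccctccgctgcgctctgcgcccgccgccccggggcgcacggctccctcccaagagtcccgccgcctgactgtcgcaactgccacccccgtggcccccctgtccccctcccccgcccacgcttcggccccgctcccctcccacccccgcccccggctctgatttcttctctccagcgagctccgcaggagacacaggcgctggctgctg
Dkk1: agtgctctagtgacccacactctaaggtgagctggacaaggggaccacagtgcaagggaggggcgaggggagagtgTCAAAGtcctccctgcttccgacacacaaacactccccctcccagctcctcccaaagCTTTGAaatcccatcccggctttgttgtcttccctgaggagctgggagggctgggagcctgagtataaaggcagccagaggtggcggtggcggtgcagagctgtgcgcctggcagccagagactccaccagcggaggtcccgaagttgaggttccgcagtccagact
Tcf7: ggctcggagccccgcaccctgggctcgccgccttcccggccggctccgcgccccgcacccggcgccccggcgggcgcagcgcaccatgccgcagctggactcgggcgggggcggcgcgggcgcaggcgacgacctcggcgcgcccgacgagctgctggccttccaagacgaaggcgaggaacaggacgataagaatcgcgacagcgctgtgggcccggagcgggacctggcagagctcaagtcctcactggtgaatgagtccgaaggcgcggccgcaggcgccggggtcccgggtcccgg
The Dkk1 window holds 2 matches, whose first bases lie 174 and 117 bases before the start site, and the Wnt11 window 1, at 50 bases before it. The RefSeq start of Dkk1 lies 169 bases inside the GENCODE gene. No match lies in the windows of Sfrp2, Wnt6 and Tcf7, which says only that these letters are not in these 300 bases. The Tcf7 window also holds an ATG with no in-frame stop after it, so part of that window may be coding sequence. Of all 37 windows of Wnt genes, which cover 30 genes, 5 (13.5%) hold CTTTGA, beside 14.4% of the 21263 windows of protein-coding genes. CG pairs were more frequent in the Wnt windows on the median, at 26 per window against 13 over protein-coding genes, with no test made, and 28 of 37 (75.7%) hold the GC box GGGCGG on either strand, beside 46.2%. Among the printed windows, Wnt11 and Tcf7 have 45 CG pairs each, Wnt6 31, Sfrp2 22 and Dkk1 9. A match is a description of the letters and was not tested as a binding site.

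The ligands came first. Per kilobase of exonic length, Wnt6 was the most abundant ligand of the WT forelimb, at 35.6 ± 1.37 CPM per kilobase (SD, n = 2), followed by Wnt5a at 29.6 ± 4.55, Wnt11 at 17.0 ± 1.40 and Wnt7b at 13.8 ± 2.32. Wnt11 and Wnt7b overlapped within 1 SD. Wnt5b (9.73 ± 2.07) and Wnt4 (8.51 ± 0.45) were close to each other too, and Wnt3 (5.33 ± 0.271) and Wnt7a (5.21 ± 0.174) came next. The remaining ligands were at 2.09 CPM per kilobase or less. In Prx-cKO the order below Wnt6 (51.4 ± 1.60 CPM per kilobase) and Wnt5a (16.3 ± 1.49) changed. Wnt7b followed at 15.5 ± 0.333, Wnt4 at 9.70 ± 0.879, Wnt11 at 8.79 ± 1.47 and Wnt5b at 7.86 ± 2.51. Wnt5a and Wnt7b overlapped within 1 SD there, and so did Wnt4, Wnt11 and Wnt5b. Wnt6 held 27.0% and 25.9% of the summed ligand level per kilobase in WT and 38.2% and 38.8% in Prx-cKO. The share of Wnt5a was 20.6% and 23.2% against 11.6% and 12.8%, and that of Wnt11 14.0% and 11.3% against 7.47% and 5.71%. The sum over the 19 ligands overlapped between the groups, at 128 and 141 CPM per kilobase in WT and 132 and 136 in Prx-cKO. The summed level thus overlapped, while its division among the ligands differed.

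**Figure D3:**
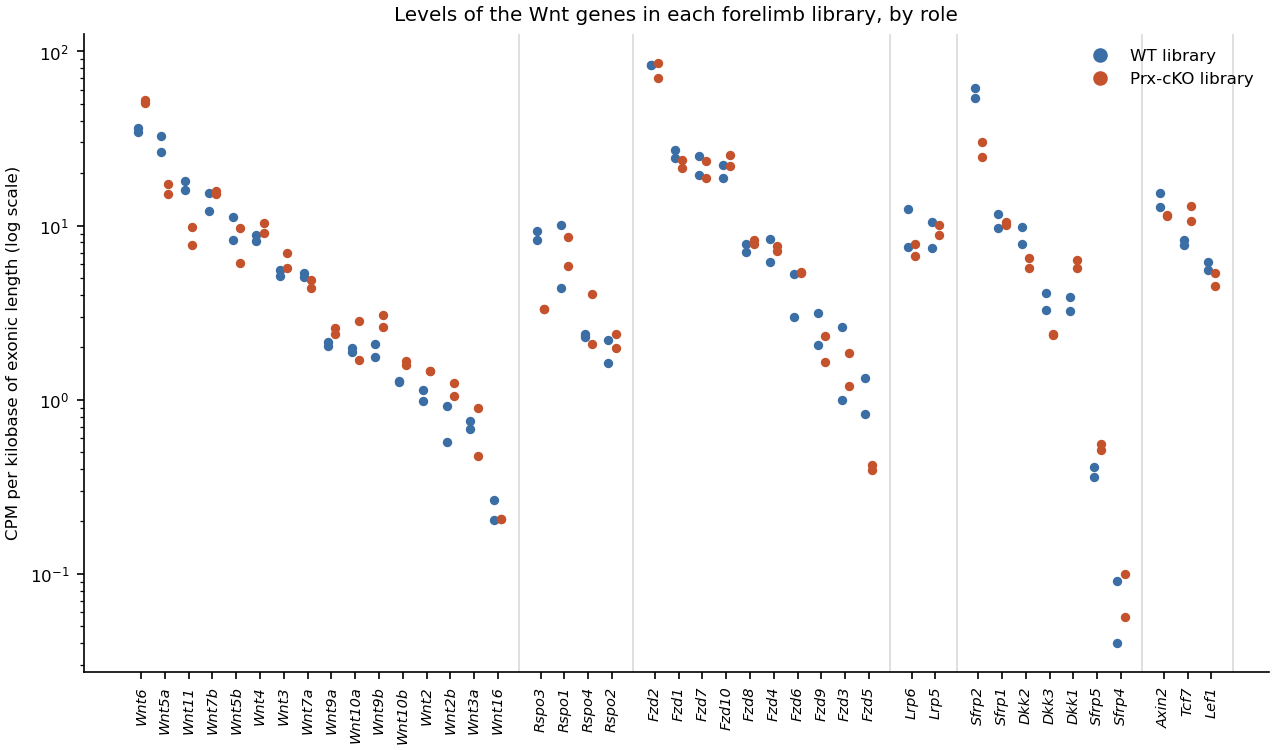
CPM per kilobase of exonic length (vertical log axis) of the Wnt genes in each forelimb library, ordered by role and by WT mean within a role, with blue dots for WT and red dots for Prx-cKO, leaving out the 4 genes with 0 counts in a library. Fzd2 and Sfrp2 are the highest in WT, at 83.7 and 58.1 on average, and the red dots of Wnt5a, Wnt11, Rspo3, Fzd5 and Sfrp2 lie below the blue ones.

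Wnt5a, which drives outgrowth of the distal limb, was at 206 and 257 CPM in WT against 119 and 136 CPM in Prx-cKO. Both Prx-cKO libraries lay well below the lower WT library, and the log2 fold change was −0.86 (SE 0.18, edgeR unadjusted p 0.00418, adjusted p 0.382). Wnt5a (ENSMUSG00000021994) lies on chromosome 14 from 28504750 to 28527448, plus strand, with all gene positions from GENCODE M21 on GRCm38. Wnt11, a ligand known for cell movement, was at 74.3 and 66.1 CPM in WT against 40.7 and 32.0 CPM in Prx-cKO. Its groups did not overlap, and the log2 fold change was −0.95 (SE 0.19, edgeR unadjusted p 0.00344, adjusted p 0.374). Wnt11 (ENSMUSG00000015957) lies on chromosome 7 from 98835112 to 98855195, plus strand. Wnt5b, the paralog of Wnt5a, was at 21.9 and 29.7 CPM in WT against 16.1 and 25.6 CPM in Prx-cKO, which overlap (log2 fold change −0.30). The mesenchyme marker sum was lower too, at 0.632 and 0.672 of the WT mean in the Prx-cKO libraries. The 11 genes of that list did not all go the same way, with 9 log2 fold changes below 0 and 2 above. Whether that sum and these ligands are linked was not tested.

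Wnt6, a ligand of the surface ectoderm, was at 75.9 and 80.2 CPM in WT against 110 and 115 CPM in Prx-cKO. The groups were far apart relative to the spread within them, and the log2 fold change was 0.53 (SE 0.14, edgeR unadjusted p 0.0119, adjusted p 0.424). Wnt6 (ENSMUSG00000033227) lies on chromosome 1 from 74771892 to 74785322, plus strand. The surface ectoderm marker sum was at 1.07 and 1.19 of the WT mean in the Prx-cKO libraries and the apical ridge sum at 1.41 and 1.33. The genes of these lists did not all go the same way. Of the 14 ectoderm genes 11 had a log2 fold change above 0 and 3 below, and of the 8 ridge genes 6 and 2. Bmp7 was the largest part of the ridge sum, at 80.3 and 80.2 CPM in WT against 115 and 105 CPM in Prx-cKO.

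The other ligands of mainly ectodermal source had smaller differences. Wnt3, which is needed to form the apical ridge, was at 15.8 and 17.0 CPM in WT against 17.5 and 21.3 CPM in Prx-cKO (log2 fold change 0.25). Wnt7a, the ligand of the dorsal ectoderm that sets dorsal identity, was at 16.1 and 16.9 CPM in WT against 13.8 and 15.4 CPM in Prx-cKO (−0.18). Wnt7b was at 59.6 and 75.7 CPM in WT against 76.9 and 74.6 CPM in Prx-cKO, with overlap (0.16). Thus Wnt7a lay slightly below WT where Wnt6 lay above it. Wnt10a was at 4.65 and 4.90 CPM against 7.03 and 4.15 CPM and overlapped (0.20). Wnt10b was at 4.35 and 4.28 CPM against 5.70 and 5.34 CPM (0.35). Wnt10b thus lay above WT in both Prx-cKO libraries and Wnt10a in 1 of them.

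Wnt4 and Wnt9a, which are known from developing joints, were slightly above WT. Wnt4 was at 37.0 and 34.4 CPM in WT against 43.3 and 38.1 CPM in Prx-cKO (log2 fold change 0.19). Wnt9a was at 7.18 and 6.73 CPM against 8.59 and 7.89 CPM (0.24). Wnt2, at 2.22 and 2.56 CPM against 3.30 and 3.29 CPM (0.45), and its paralog Wnt2b, at 2.41 and 3.89 CPM against 4.42 and 5.21 CPM (0.60), also lay above WT in both Prx-cKO libraries. Wnt9b, known from kidney development, was at 7.91 and 9.47 CPM against 13.9 and 11.8 CPM (0.56, edgeR unadjusted p 0.0645). None of these had an unadjusted p under 0.05. Wnt3a was at 2.08 and 1.88 CPM against 2.47 and 1.31 CPM and overlapped (−0.12). Wnt16 was at 1.16 and 0.892 CPM against 0.904 and 0.90 CPM, also with overlap (−0.16). In all, 11 of the 17 ligands tested had a log2 fold change above 0, beside 9433 of all 19987 genes, and the signs of Wnt7b, Wnt10a and Wnt3a turned when 1 library was left out.

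Wnt8a, a ligand of the early embryo, was near the limit of detection. It had 0 and 5 counts in the WT libraries and 16 and 53 in the Prx-cKO libraries, or 0 and 0.0697 CPM against 0.557 and 1.04 CPM. The Prx-cKO libraries were higher, with a fitted log2 fold change of 4.19 (SE 0.94, edgeR unadjusted p 0.00367, adjusted p 0.379). Wnt8a passed the filter on low counts through the Prx-cKO libraries alone, so this test is not independent of their being higher. The log2 fold change rests on so few WT counts that it became 8.10 without WT replicate 2 and 3.51 without WT replicate 1. Wnt1 had 0, 0, 0 and 2 counts and Wnt8b 0, 4, 0 and 0, in the order WT replicates 1 and 2 and Prx-cKO replicates 1 and 2, and neither was tested. A count of 0 allows up to 3 counts, which is 0.0418 to 0.104 CPM in these libraries, for counting error only.

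Several ligand genes are neighbours in the genome, and the data allow these to be set side by side. Wnt6 and Wnt10a lie 6193 bases apart on chromosome 1 on the same strand, and had log2 fold changes of 0.53 and 0.20. Wnt9b and Wnt3 lie 24328 bases apart on chromosome 11 and start away from each other, with 0.56 and 0.25. Wnt3a and Wnt9a, 16175 bases apart on the same chromosome, had −0.12 and 0.24. Wnt10b, at 0.35, lies 11706 bases from Wnt1, which was not tested. Wnt9b and Wnt3 kept their signs when any 1 library was left out, but Wnt10a then ran from −0.19 to 0.56 and Wnt3a from −0.58 to 0.33, so the signs of the other pairs cannot be compared.

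**Figure D4:**
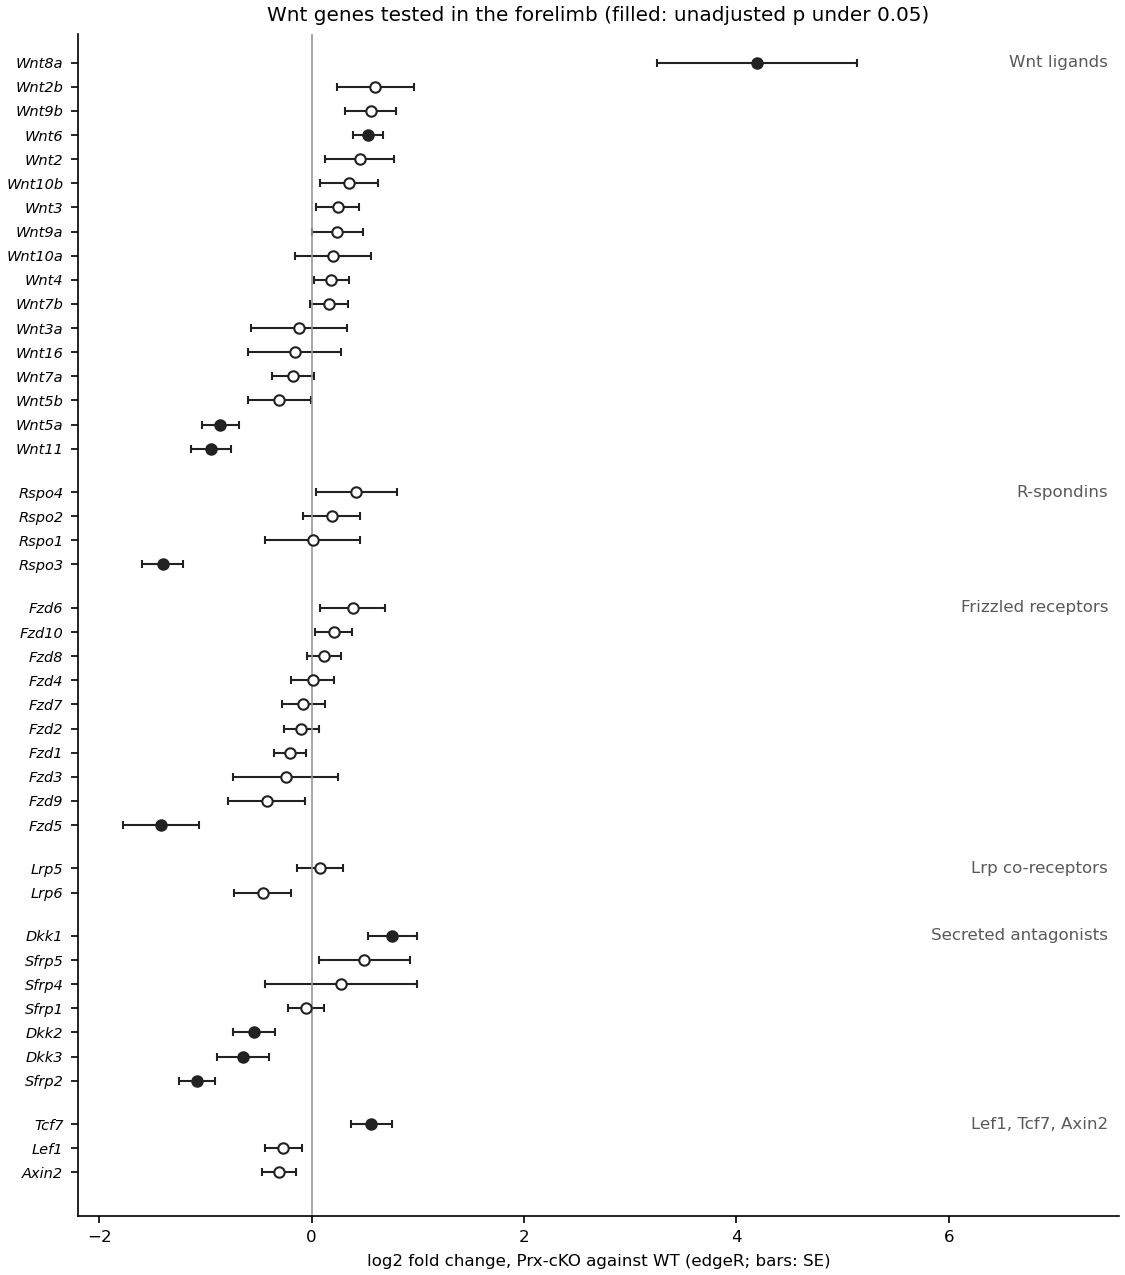
Log2 fold change of Prx-cKO against WT (horizontal axis, edgeR, bars show the SE) of the 43 Wnt genes tested, grouped by role, with filled dots for an unadjusted p under 0.05. Rspo3, Fzd5 and Sfrp2 lie farthest to the left at −1.40, −1.42 and −1.08, and most Frizzled receptors lie within 0.5 of 0.

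Rspo3, an R-spondin that raises Wnt receptor levels through Lgr receptors, had the smallest p of all Wnt genes. It was at 25.4 and 28.9 CPM in WT against 10.2 and 10.3 CPM in Prx-cKO. The Prx-cKO libraries were nearly equal and far below WT, and the log2 fold change was −1.40 (SE 0.19, edgeR unadjusted p 0.000649, adjusted p 0.332, DESeq2 adjusted p 6.66e-05). Rspo3 (ENSMUSG00000019880) lies on chromosome 10 from 29452416 to 29535867, minus strand. The other R-spondins overlapped between the groups. Rspo1 was at 19.4 and 8.51 CPM in WT against 16.7 and 11.4 CPM in Prx-cKO (log2 fold change 0.01). Rspo2, which is known from the apical ridge and is required for limb formation, was at 11.2 and 8.29 CPM against 12.2 and 10.1 CPM (0.19). Rspo4 was at 5.46 and 5.62 CPM against 4.94 and 9.65 CPM (0.42). Rspo3 held 36.1% and 52.7% of the summed R-spondin level per kilobase in WT and 20.2% and 21.9% in Prx-cKO. The share of Rspo1 was 44.1% and 24.8% in WT and 52.6% and 38.4% in Prx-cKO, which overlap.

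Of the 10 Frizzled receptors, 7 overlapped between the groups, Fzd1 and Fzd5 lay below WT and Fzd6 above it. Only Fzd5 had an edgeR unadjusted p under 0.05. Of all genes tested, 21.0% lay below WT without overlap, 22.2% lay above it and 10.5% had an edgeR unadjusted p under 0.05. Fzd2 was the most abundant, at 305 and 308 CPM in WT against 258 and 315 CPM in Prx-cKO (log2 fold change −0.10), and it held 44.8% to 49.9% of the family's level per kilobase in the 4 libraries. Fzd1, Fzd7 and Fzd10 followed at 25.9 ± 1.81, 22.3 ± 3.81 and 20.6 ± 2.57 CPM per kilobase in WT (SD, n = 2) and each overlapped its neighbour in this order within 1 SD. Fzd1 was at 103 and 114 CPM in WT against 89.5 and 99.5 CPM in Prx-cKO (−0.20). Fzd7 was at 88.7 and 113 against 85.0 and 106 CPM (−0.08), and Fzd10 at 61.0 and 72.8 against 71.8 and 82.8 CPM (0.21). The log2 fold changes of these 4 main receptors thus lay between −0.20 and 0.21.

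Fzd5, a low-abundance receptor, was at 5.74 and 9.22 CPM in WT against 2.92 and 2.74 CPM in Prx-cKO. Its WT libraries differed more from each other than its Prx-cKO libraries did, and the log2 fold change of −1.42 (SE 0.36, edgeR unadjusted p 0.00991, adjusted p 0.415) ranged from −1.74 without WT replicate 1 to −1.01 without WT replicate 2. Fzd5 (ENSMUSG00000045005) lies on chromosome 1 from 64730558 to 64737751, minus strand. Fzd8 was at 46.8 and 42.0 CPM in WT against 49.5 and 46.7 CPM in Prx-cKO (0.12), and Fzd4 at 41.5 and 56.5 against 47.8 and 51.1 CPM (0.01). Fzd6 was at 14.4 and 25.3 against 25.8 and 26.2 CPM (0.39), Fzd3 at 12.8 and 33.5 against 15.3 and 23.7 CPM (−0.25), and Fzd9 at 4.72 and 7.22 against 5.32 and 3.76 CPM (−0.42). For Fzd3 and Fzd6 the WT libraries differed more from each other than the genotypes did.

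The co-receptors Lrp5 and Lrp6 overlapped between the groups. Lrp6 was at 103 and 170 CPM in WT against 91.4 and 107 CPM in Prx-cKO, with WT replicate 2 standing above the rest (log2 fold change −0.46). Lrp5 was at 72.8 and 102 CPM against 86.4 and 98.6 CPM (0.08, and −0.02 with library size alone).

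Sfrp2, a secreted protein that binds Wnt ligands, was the main antagonist of the forelimb, at 58.1 ± 5.23 CPM per kilobase in WT (SD, n = 2). It was at 117 and 133 CPM in WT against 65.0 and 53.4 CPM in Prx-cKO. Its groups did not overlap, and the log2 fold change was −1.08 (SE 0.17, edgeR unadjusted p 0.00135, adjusted p 0.332, DESeq2 adjusted p 0.0024). Sfrp2 (ENSMUSG00000027996) lies on chromosome 3 from 83766321 to 83774316, plus strand. It held 66.6% and 69.3% of the level per kilobase of the 8 antagonists in WT and 54.5% and 49.2% in Prx-cKO. Sfrp1, its relative, was at 51.0 and 42.2 CPM in WT against 44.2 and 45.6 CPM in Prx-cKO (−0.05). Sfrp4 was under 1 CPM in every library, with 12 to 16 counts (0.28), and Sfrp5 had 33 and 49 counts in WT and 28 and 54 in Prx-cKO, or 0.780 and 0.683 CPM against 0.974 and 1.06 CPM (0.50). Summed over the 8 antagonists, the level was 81.6 and 89.1 CPM per kilobase in WT and 55.4 and 50.4 in Prx-cKO, with Sfrp2 as the main part of the gap.

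The Dkk genes went both ways. Dkk1, the classical inhibitor of Lrp5 and Lrp6, was at 9.50 and 7.87 CPM in WT against 13.9 and 15.4 CPM in Prx-cKO. Both Prx-cKO libraries lay above WT, and the log2 fold change was 0.76 (SE 0.23, edgeR unadjusted p 0.0197, adjusted p 0.444). Dkk1 (ENSMUSG00000024868) lies on chromosome 19 from 30545863 to 30549665, minus strand. Dkk2, which also binds Lrp co-receptors, was at 29.2 and 36.5 CPM in WT against 24.0 and 21.2 CPM in Prx-cKO, a log2 fold change of −0.54 (SE 0.20, edgeR unadjusted p 0.040, adjusted p 0.47). Dkk3, a divergent member, was at 10.9 and 13.8 CPM in WT against 7.86 and 7.99 CPM in Prx-cKO, a log2 fold change of −0.64 (SE 0.24, edgeR unadjusted p 0.0426, adjusted p 0.474). Dkk2 and Dkk3 were thus lower where Dkk1 was higher, and both were near the edge of the unadjusted threshold. Dkk2 (ENSMUSG00000028031) lies on chromosome 3 from 132085292 to 132180304, plus strand, and Dkk3 (ENSMUSG00000030772) on chromosome 7 from 112116017 to 112159057, minus strand. Dkk4 had 0 and 10 counts in WT and 0 and 6 in Prx-cKO and was not tested.

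Of the nuclear factors and the target gene, Tcf7 differed in the other direction from Lef1 and Axin2. Tcf7, a factor that carries beta-catenin to DNA, was at 21.6 and 20.3 CPM in WT against 27.8 and 34.1 CPM in Prx-cKO. The log2 fold change was 0.56 (SE 0.19, edgeR unadjusted p 0.0303, adjusted p 0.46), and it ranged from 0.41 without Prx-cKO replicate 2 to 0.71 without Prx-cKO replicate 1. Tcf7 (ENSMUSG00000000782) lies on chromosome 11 from 52252371 to 52283014, minus strand. Lef1, its relative, was at 48.9 and 54.6 CPM in WT against 39.5 and 46.6 CPM in Prx-cKO (−0.27). Axin2, a scaffold of the beta-catenin destruction complex and a common readout of the pathway, was at 84.8 and 70.5 CPM in WT against 63.1 and 62.3 CPM in Prx-cKO (−0.31, edgeR unadjusted p 0.115). For Lef1 and Axin2 both Prx-cKO libraries lay below both WT libraries. The nearest libraries of the groups, however, lay closer together than the WT libraries did.

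Some of these genes share exons with a gene on the opposite strand. This holds for 9 of the 46, among them 5 of the 11 with an unadjusted p under 0.05, and reads of the pair cannot be told apart, since the use of strand in counting is not given in the sources used here. The partner with the most counts beside its Wnt gene was Gm43352, which shares 1208 of the 8788 exonic bases of Lef1, with 175, 566, 163 and 341 counts against 2072, 3921, 1135 and 2383 for Lef1. Gm48159, which shares 404 of the 3090 exonic bases of Rspo3, had 5 and 2 counts in WT and 0 in both Prx-cKO libraries, against 294 to 2073 for Rspo3. Gm8398, the partner of Wnt11, had 0 counts in every library, and Gm38058, the partner of Fzd5, had 0 to 10. Gm26771, which shares 347 bases with Sfrp2, had 131, 136, 59 and 42 counts against 4955, 9544, 1869 and 2730 for Sfrp2. Gm2670, which shares 358 bases with Wnt5a, had 182, 1017, 106 and 301 counts against 8733, 18420, 3432 and 6943 for Wnt5a, in the library order given above.

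A further 57 genes of Wnt processing, reception and response, a list that was chosen with earlier results of these data known, gave the setting. All 57 were tested and 0 passed over all genes. At an unadjusted p under 0.05, 5 were higher and 4 lower in Prx-cKO (all genes tested: 5.87% and 4.61%). They were 3 higher and 15 lower when WT replicate 1 was left out, 7 and 4 when WT replicate 2 was, and 2 and 1 when either Prx-cKO library was. The clearest difference was in Sp5, a zinc finger factor known as a direct Wnt target, which was at 1.56 and 1.46 CPM in WT against 5.95 and 7.95 CPM in Prx-cKO. Its log2 fold change was 2.21 (SE 0.33, edgeR unadjusted p 0.000994, adjusted p 0.332), and DESeq2 called it (adjusted p 2.4e-05). Wif1, a secreted protein that binds Wnt ligands, was at 47.8 and 48.5 CPM in WT against 26.2 and 24.4 CPM in Prx-cKO, a log2 fold change of −0.93 (SE 0.16, edgeR unadjusted p 0.00176, adjusted p 0.332), and was called by DESeq2 too (adjusted p 0.00878). These were the only 2 of the 57 that DESeq2 called, beside 1.45% of all genes, and edgeR called neither with all 4 libraries. Over all settings the log2 fold change ran from 1.98 to 2.41 for Sp5 and from −1.03 to −0.87 for Wif1.

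Over the 57 genes 24 had a log2 fold change above 0 and 33 below, beside 9433 above and 10554 below of all 19987 genes tested. Besides Sp5, 4 more with an unadjusted p under 0.05 in edgeR were higher. Notum, an enzyme that removes the lipid of Wnt ligands, was at 14.6 and 11.1 CPM in WT against 21.3 and 24.5 CPM in Prx-cKO (log2 fold change 0.84). Its exons overlap those of Notumos and Myadml2os on the opposite strand, so its counts are uncertain. Nkd1 and Apcdd1, both inhibitors of the pathway, were at 58.1 and 66.9 against 81.4 and 88.8 CPM (0.45) and at 59.5 and 70.4 against 85.5 and 95.1 CPM (0.47). Lgr6, a receptor for R-spondins, was at 1.35 and 2.24 against 3.86 and 4.83 CPM (1.25). All 4 had both Prx-cKO libraries above both WT libraries, as Sp5 did, while Axin2 had them below. They were picked as higher by p, so their lack of overlap adds little. Of all 57 genes, 10 lay above WT without overlap and 14 below. Of all genes tested, 22.2% lay above and 21.0% below.

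The genes that were lower included Gpc3, a glypican of the cell surface, at 761 and 719 CPM in WT against 475 and 479 CPM in Prx-cKO (log2 fold change −0.63). Draxin, a secreted guidance protein that can block Wnt signalling, was at 16.4 and 22.6 against 11.2 and 10.1 CPM (−0.88). Prickle1, a planar polarity protein, was at 41.0 and 45.1 against 31.0 and 31.4 CPM (−0.47). In each of these the Prx-cKO libraries were below WT and close to each other. Porcn, which adds the lipid to Wnt ligands, was at 14.1 and 11.7 against 8.66 and 8.63 CPM (−0.57). Lgr5, another receptor for R-spondins and itself a Wnt target, was at 14.0 and 15.6 against 11.2 and 8.18 CPM (−0.62). Tnfrsf19, also known as a Wnt target, was at 50.9 and 65.6 against 77.3 and 81.2 CPM (0.44). The last 3 had no overlap between groups but an unadjusted p just above 0.05.

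**Figure D5:**
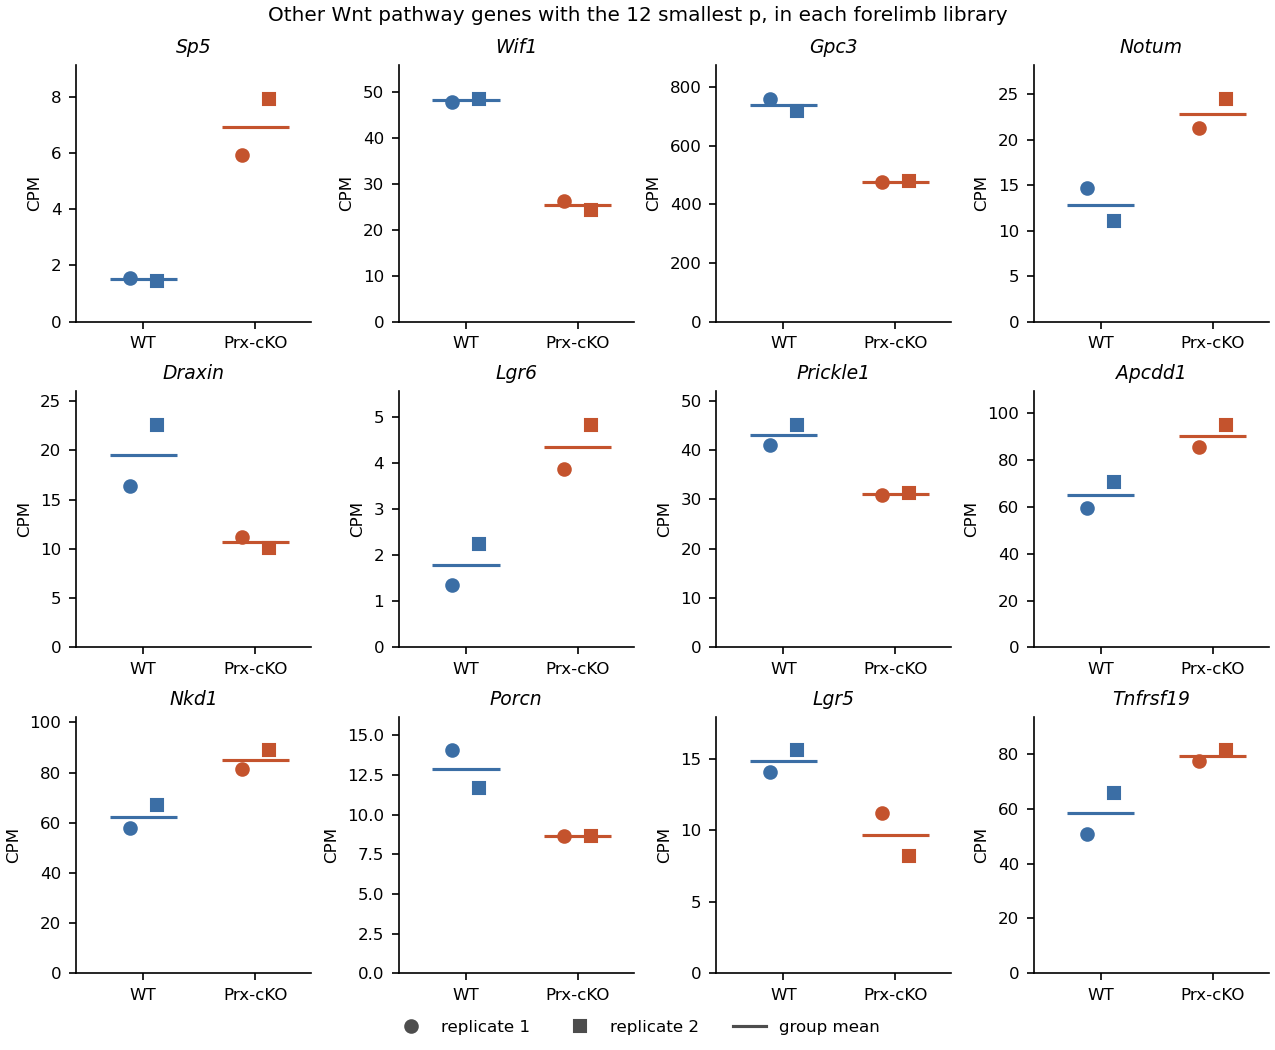
CPM (vertical axis, linear from 0) in each forelimb library of the 12 other Wnt pathway genes with the smallest p, with circles for replicate 1, squares for replicate 2 and a bar at each group mean. Sp5 goes from about 1.5 to between 5.95 and 7.95 CPM, and Wif1 and Gpc3 are lower in both Prx-cKO libraries.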

How the data were processed

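Per the labels' protocols, TRIzol served for RNA extraction and a kit for mRNA for the libraries. The authors deposited raw whole-number counts per Ensembl gene. The submitters' processing notes name FastQC 0.11.2, Trimmomatic 0.36, HISAT2 2.1.0, DESeq2 1.12.4 and the build GRCm38; the counting tool and the use of strand are not given in the sources used here. Symbols, positions and exonic lengths came from GENCODE M21 on GRCm38, which matched 51633 of 51826 identifiers (unmatched ones took at most 0.064% of a library).

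The 4 forelimb libraries were fitted alone with edgeR 4.0.16 in R 4.3.3 (filterByExpr, TMM, quasi-likelihood test with legacy = FALSE, two-sided, Benjamini-Hochberg adjustment over the 19987 genes tested, calls under 0.05). The SE was taken as |log2 fold change| over the square root of F. CPM use the scaled library sizes. An exact permutation test of 2 against 2 libraries cannot go below p = 0.333, so none was used. Alternatives were DESeq2 1.42.0, RLE size factors, library size alone, no filter, legacy = TRUE, a replicate block and leaving out each library. Replicates differed by more than sampling noise (chi-square per degree of freedom 131 and 44.6). The script was tested on simulated counts, which checks the code and not the power in these libraries. Wnt genes averaging 1 CPM or more are given by library, and fold statistics are given in full at an unadjusted p under 0.05. Of the other pathway genes the 12 with the smallest p are named. The members and lists were chosen with earlier results of these data known.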

Additional observations from a re-analysis of the deposited data

How the results depend on the processing

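Over all genes, DESeq2 made 301 calls and the other settings that kept all 4 libraries made 0 in edgeR; leaving out 1 library gave 0 to 603. Among the Wnt genes DESeq2 made 4 calls, and leaving out 1 library gave 0 to 4. The count of Wnt genes lower at an unadjusted p under 0.05 was 4 to 9, and that of higher ones 0 to 4, when 1 library was left out. For the other pathway genes these counts were 7 lower and 3 higher with DESeq2 and with no filter, 9 and 3 with library size alone, and 1 to 15 and 2 to 7 with 1 library left out. The cause of these moves was not tested. Library size alone moved the median of all genes by −0.099. The 11 Wnt genes named with full statistics and the 12 other pathway genes kept their sign in all 10 settings.

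Of the 32 other Wnt genes tested, 19 kept their sign in all 10 settings. With 1 library left out, log2 fold changes ran from −0.16 to 0.81 for Rspo4, −0.035 to 0.35 for Wnt7b, −0.0097 to 0.39 for Rspo2, −0.25 to 0.052 for Fzd2, −0.19 to 0.56 for Wnt10a, −0.81 to 0.63 for Fzd3, −0.30 to 0.82 for Sfrp4, −0.28 to 0.12 for Fzd7, −0.18 to 0.35 for Lrp5, −0.17 to 0.053 for Sfrp1, −0.58 to 0.33 for Wnt3a, −0.23 to 0.26 for Fzd4 and −0.47 to 0.68 for Rspo1. Lrp5 was at −0.021 with library size alone. Fzd4 was at −0.0018 with DESeq2, −0.0024 with RLE, −0.087 with library size alone and −0.028 with no filter, and Rspo1 at −0.0026 with RLE, −0.082 with library size alone and −0.014 with no filter.

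With the replicate number as a block, edgeR called 0 genes, the Wnt genes had 4 higher and 6 lower at an unadjusted p under 0.05, and their median log2 fold change was 0.09. The other pathway genes had 6 and 6. Deviations of same-numbered libraries correlated at r = 0.261 across 19987 genes, and the labels do not say whether a number marks a shared litter or day. At the unadjusted threshold the block moved Dkk2 from p 0.040 to 0.0521 (edgeR). DESeq2 was not run with a block. With 2 libraries a group and no molecular identifiers, differences in genes under about 1 CPM, such as Sfrp4, were limited by depth.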
